A study of Mus musculus with 6 samples.

Results

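The Grb10 locus of the mouse and an unannotated locus that starts beside it and runs the other way, XLOC_004337, were followed from undifferentiated embryonic stem (ES) cells to embryoid bodies. The region was taken as every assembled locus with any part in a window of 450001 bases of chromosome 11 (mm9) that runs from inside the Fignl1 locus into the Cobl locus. It held 13 assembled loci, of which 6 were among the 18420 loci with counts and 7, each a single exon without a strand, were not. Grb10 was identified as the coding minus-strand locus with the most exonic bases in the stretch just before the start of XLOC_004337, which was XLOC_005288.

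RNA was poly(A)-selected and sequenced from 3 libraries at day 0 and 3 at day 6 after cardiac differentiation was induced in hanging drops. All libraries came from a single ES cell line, E14Tg2A.4 with an Nkx2.5-EmGFP BAC reporter, in which a green fluorescent protein follows a gene of early heart cells. The strain field reads C57BL/6J and the growth protocol 129/OlaHsd, and no label says which is right. Undifferentiated cells were kept in medium with the self-renewal cytokine LIF on fibroblast feeders or on gelatin, and the labels do not say which sample had which. The series calls the libraries biological replicates, and nothing says whether they came from separate cultures, so the p-values measure the spread between these libraries only. Libraries held 106306699 to 114092201 counted reads. The files pair no locus with a gene symbol, and symbols were matched only in and around the region, so the labelled cell types were not checked against their markers here, and the part of feeder RNA in the day 0 values was not tested.

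Grb10 encodes an adaptor protein that binds activated growth factor receptors, above all the insulin and IGF1 receptors, and dampens their signal. It is an imprinted gene: most tissues of the mouse transcribe the maternal copy, while neurons transcribe the paternal copy from other promoters further into the gene. Through this dosage Grb10 limits the growth of the embryo and the placenta. Divergent transcripts, which leave a promoter against the direction of its gene, are common at promoters rich in CpG dinucleotides, and many of them are noncoding. Counts per locus do not tell parental copies apart, and none of the values below refers to an allele.

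The identity given by position was checked against GENCODE M21, whose coordinates are on another build (GRCm38), by comparing the ordered lengths of introns, which need no common coordinates. The longest model of XLOC_005288, with 17 exons, had the same intron lengths as an M21 transcript of Grb10, all 16 of them. A model with 16 exons had those of another Grb10 transcript. The other 2 models had no full match, but their 2 and 1 internal exons, with the introns on both sides, were those of Grb10. The same comparison placed the other counted loci of the region: XLOC_005289 had the intron chain of Cobl, XLOC_005287 that of Ddc, XLOC_005286 that of Fignl1 and XLOC_004336 that of the noncoding RNA 1700042O10Rik. These loci are called by those names below. No model of XLOC_004337 shared its intron chain, or an internal exon with its neighbouring introns, with any M21 transcript on its chromosome and strand. M21 lists 2 genes between Grb10 and Cobl, the pseudogene Gm12001 and the small nuclear RNA gene Gm24036, and both lie on the minus strand. The RefSeq table, for GRCm38.p6, lists 2 genes there, Gm24036 and the noncoding RNA gene Gm30423. The promoter table places Gm30423 on the minus strand.

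The locus of Grb10 spans 11830502 to 11937423 on the minus strand of chromosome 11 and XLOC_004337 spans 11937677 to 12097381 on the plus strand, so that the genes stand head to head. Their outermost starts were 254 bases apart, with 253 bases between them. In the merged assembly 7 of the 13 models of XLOC_004337 belonged to the start group nearest to Grb10, with starts between 254 and 341 bases from that of Grb10. An eighth model began 433 bases away, still within the 254-base opening exon. The remaining 5 models began farther off, at 1313, 2369, 28573, 30529 and 38418 bases. On the Grb10 side 2 of the 4 models used the outermost start. A further start lay 9449 bases into the gene and another 11096 bases into it. Measured from the start at 9449 bases, the nearest divergent start was 9703 bases away.

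RefSeq places the same pair of Grb10 starts 9449 bases apart on GRCm38.p6. The sequence from 250 bases before to 50 bases after each start is shown because, at the outer start, the bases before it make up nearly the whole gap between Grb10 and XLOC_004337. The strand is that of Grb10, so the divergent locus lies to the left of the outer sequence. Capitals mark GGGCGG or its reverse complement CCGCCC, the core of the GC box; where 2 matches touch or overlap they run together. The outer promoter is chr11:12037371-12037670 and the inner one chr11:12027922-12028221, both on the minus strand of GRCm38.p6.
Grb10 outer promoter: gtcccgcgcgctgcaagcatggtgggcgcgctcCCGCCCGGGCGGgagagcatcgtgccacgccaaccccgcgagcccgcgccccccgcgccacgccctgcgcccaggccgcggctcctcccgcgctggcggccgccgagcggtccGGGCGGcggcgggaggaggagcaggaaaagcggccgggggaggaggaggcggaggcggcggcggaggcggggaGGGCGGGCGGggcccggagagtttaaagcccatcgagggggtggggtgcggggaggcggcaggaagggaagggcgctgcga
Grb10 inner promoter: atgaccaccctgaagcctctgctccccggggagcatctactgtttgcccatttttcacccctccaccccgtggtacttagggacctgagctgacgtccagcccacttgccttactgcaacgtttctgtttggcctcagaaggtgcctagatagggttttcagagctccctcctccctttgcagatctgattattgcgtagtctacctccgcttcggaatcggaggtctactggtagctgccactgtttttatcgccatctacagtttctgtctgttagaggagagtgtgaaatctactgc
The outer sequence was 80% G and C, held 45 CpG dinucleotides and had 5 matches to the GC box. Over the 32851 promoters of that length in the RefSeq table, 1.05% had as much G and C, 1.93% as many CpG and 2.71% as many GC boxes, and 35.7% had a GC box at all on either strand. The inner sequence was 52.3% G and C with 9 CpG and no GC box, close to the medians of 52.7% and 7 CpG. Neither sequence held TATAAA or CCAAT on either strand, which occur in 13.6% and 37.4% of these promoters. The 2 starts of Grb10 thus differ in base composition, and the CpG-rich start is the one that faces XLOC_004337. These matches describe letters in a window and not binding.

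**Figure D1:**
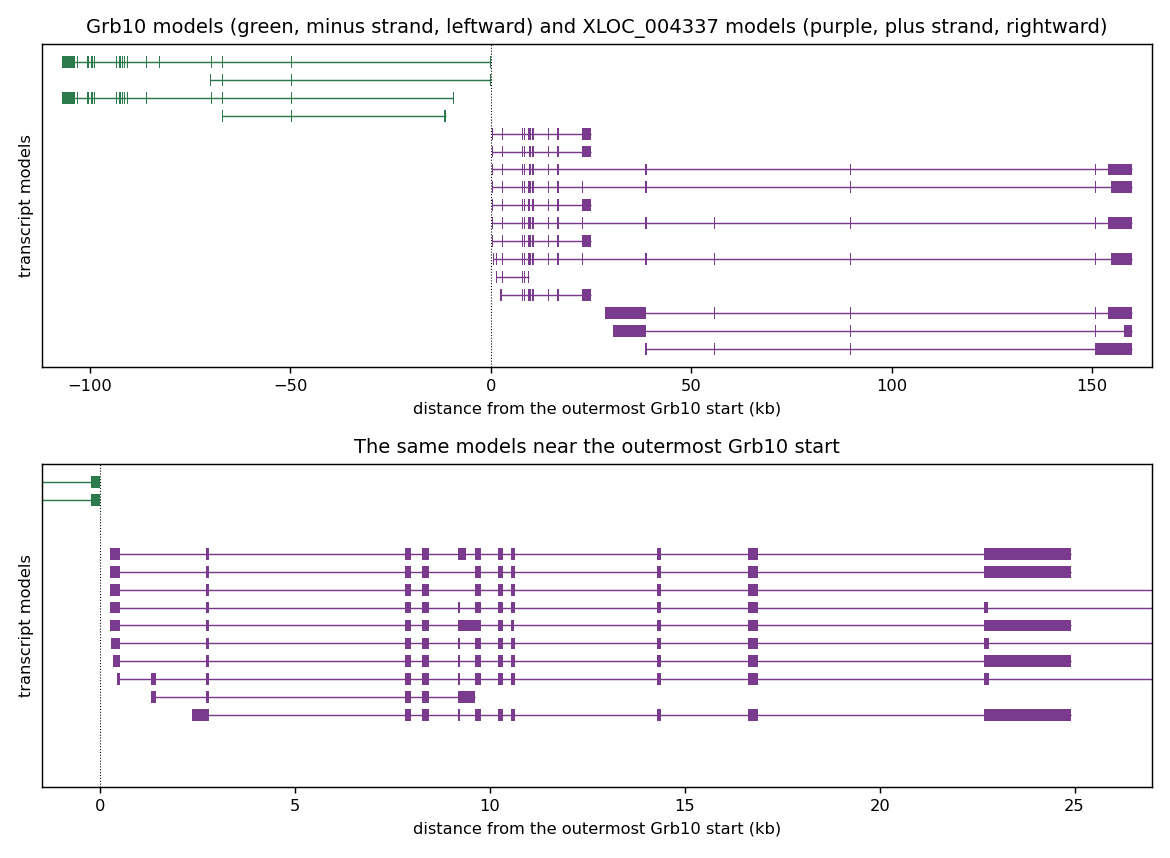
Transcript models of the Grb10 locus (green, minus strand) and of XLOC_004337 (purple, plus strand) in the merged assembly, drawn by distance in kilobases from the outermost Grb10 start, over the whole region (top) and near the start (bottom). Boxes are exons, drawn at a minimum width where short, and lines are introns; 8 purple models begin within 433 bases of that start, 5 end near 25 kb and 7 near 160 kb.

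XLOC_004337 was assembled as 13 spliced models with 4 to 17 exons, all of them classed as unknown and intergenic. Their exons merge into 15 blocks of 80 to 10128 bases, with a median of 204, over a span of 159705 bases. The models fall into groups by where they end. Of the 13, 5 ended at 11962335, which is 24658 bases from the outermost start, in a terminal exon block of 2224 bases. Another 7 ended at 12097381, which is 135046 bases farther on, and each of these skips an intron of 60718 bases. A model of 5 exons ended at 11947033. The groups with the 2 main ends had 10 exons in common, and models of either group used the start beside Grb10. The 3 models that begin 28573 to 38418 bases away all ran to the far end, and their opening exons lie in the longest block, at 11965996 to 11976123. Between the near end and that block lie 3 of the uncounted single-exon loci, at 11962464 to 11963343, 11963449 to 11965191 and 11965284 to 11965901. From the far end to the 3′ end of the Cobl locus there were 39140 bases, with the other uncounted loci at 12124542 to 12126980, 12127046 to 12130326 and 12130680 to 12132678. The remaining uncounted locus lies at 11807473 to 11808105, between Ddc and Grb10. How many reads belong to each model or end is not given by the table, which has 1 value per locus.

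By structure XLOC_004337 is far from a typical intergenic locus. Among the 2075 unannotated intergenic loci with counts it ranked 6 by span, against a median span of 7074 bases, and 3 by the number of exons, against a median of 2. Its 24367 exonic bases ranked 25, against a median of 3155, and its 13 models ranked 12. Head-to-head pairs of an intergenic and a coding locus, with starts within 5000 bases, numbered 261, and in this set XLOC_004337 had the longest span and the most exons. The distance to its partner was ordinary there: 147 of the 261 pairs had starts at most 254 bases apart, XLOC_004337 and Grb10 included, and the median gap was 204 bases.

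Grb10 itself was represented by 4 models, all matching annotated transcripts, and the assembly added no model of its own to the locus. Of these, 3 carry a protein identifier. Their 19 exon blocks sum to 5813 bases and are mostly short, with a median of 116 bases and a terminal block of 3111 bases that holds the common 3′ end of the long models at 11830502. The short models end at 11867367 and 11870426. Introns reach 49517 bases. XLOC_004337 and Grb10 shared no exonic base with each other or with any other assembled locus, so overlapping exons do not blur their counts. The sources used here do not say whether counting used strand.

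Grb10 RNA rose strongly as ES cells formed embryoid bodies. The locus had 28364, 29007 and 30838 normalized counts in day 0 replicates 1, 2 and 3, and 241573, 241701 and 205135 in day 6 replicates 1, 2 and 3. Every day 6 library was far above every day 0 library, and the day 0 libraries lay close together, with a coefficient of variation of 4.37%. The means were 29403 ± 1284 and 229470 ± 21075 (SD, n = 3 each), a ratio of 7.8. On the scale of log2(normalized count + 1) the difference was 2.96 (SE 0.13, limma adjusted p = 4.41e-06). In cell mixtures such as embryoid bodies, more RNA per cell and more cells that express a gene cannot be told apart.

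The rise made Grb10 one of the most abundant loci. By normalized counts it ranked 757 of 18420 at day 0 and 21 at day 6, and per exonic kilobase 662 and 39. Its share of all normalized counts went from a mean of 0.0275% to 0.2%. Among the 17145 tested loci it ranked 5 by the gain in mean normalized counts, while 3.59% had a larger difference on the log2 scale. Per exonic kilobase the locus had 5058 ± 220.9 normalized counts before and 39475 ± 3625 after differentiation (SD, n = 3 each), against a median of 182 and 189 over coding loci. It was thus well above the typical coding locus before differentiation already.

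The divergent locus rose too, from a level far below that of Grb10. Per exonic kilobase the day 0 gap was 499.2-fold on average, and its size depends on the length used. XLOC_004337 had 300.1, 205.1 and 254.3 normalized counts in day 0 replicates 1, 2 and 3, from 344, 198 and 255 reads. In day 6 replicates 1, 2 and 3 it had 1090, 982.1 and 884.1, from 1075, 958 and 847 reads. The stages did not overlap, and the lowest day 6 library was well above the highest day 0 library. The log2 difference was 1.97 (SE 0.24, limma adjusted p = 0.000374). Per exonic kilobase its level was 10.39 ± 1.95 before and 40.44 ± 4.226 after differentiation (SD, n = 3 each), where intergenic loci had medians of 12.1 and 7.32. In this measure it ranked 1197 of the 2075 intergenic loci at day 0 and 187 at day 6. Per exonic kilobase it thus moved from below the middle of its class to near its top. By normalized counts it was above the middle at both stages, ranked 253 at day 0 and 49 at day 6. The class medians of normalized counts were 34.8 and 21.9. Its place in the class at day 0 thus depends on whether counts are divided by length. The length chosen matters as well. With the median length of its models the day 0 level was 34.13 ± 6.407 per kilobase (SD, n = 3). The class was not recomputed in that measure.

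A rise of XLOC_004337 was not the usual course for its class. Of the 1660 tested intergenic loci 13.4% were called higher at day 6, against 22.2% of all tested loci, and the median log2 difference of the class was -0.61. Of the intergenic loci 9.16% had a larger difference than XLOC_004337. In 226 head-to-head pairs both loci were tested. Their intergenic loci were nearer to all tested loci, whose median log2 difference was 0.02. Of these 226, 42 were called higher and 35 lower, with a median log2 difference of 0.17. Of the 225 coding loci of these pairs 55 were called higher and 50 lower. Over all tested loci the shares were 22.2% higher and 21.8% lower. Both loci of a pair rose in 25 pairs, Grb10 with XLOC_004337 among them, and both fell in 23. In 1 pair the intergenic locus rose and the coding locus fell, in 4 it was the reverse, and in the other 173 at most 1 of the pair was called. Whether the loci of a pair went together more often than these shares alone would give was not tested. By size of difference Grb10 ranked 8 among the paired coding loci and XLOC_004337 19 among the 226 intergenic loci.

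**Figure D2:**
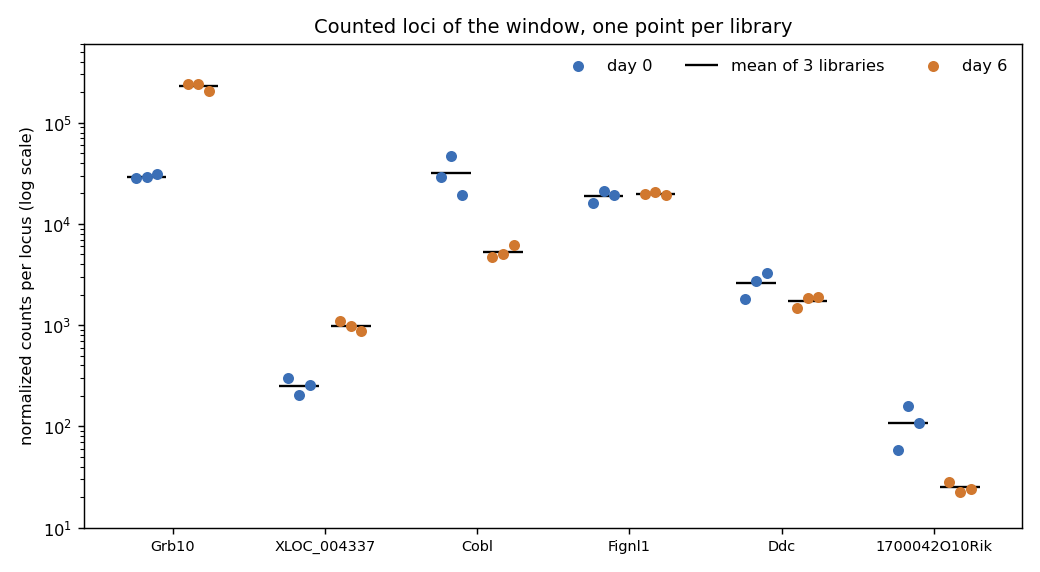
Normalized counts of the 6 counted loci of the region on a log scale, with 1 point per library (blue, day 0; orange, day 6) and a bar for the mean of 3 libraries. Grb10 and XLOC_004337 are higher in all day 6 libraries, Cobl and 1700042O10Rik are lower in all of them, and the stages overlap for Fignl1 and Ddc.

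The levels of the 2 loci were also compared within each library. Per exonic kilobase, XLOC_004337 had 0.252, 0.169 and 0.197% of the Grb10 level in day 0 replicates 1, 2 and 3. In day 6 replicates 1, 2 and 3 it had 0.108, 0.0969 and 0.103%. The ratio was lower in every day 6 library than in any day 0 library, with means of 0.206 ± 0.0426% and 0.102 ± 0.00536% (SD, n = 3 each). The log2 ratio differed by -0.99 (SE 0.17), a 1.99-fold lower value at day 6. The two-sided exact permutation test over libraries gave p = 0.1, the smallest value that 3 libraries against 3 allow, so this test cannot pass a threshold of 0.05 with these libraries. No other test of the ratio over unpaired libraries was made. A ratio within a library does not depend on how libraries were scaled. Its level does depend on the length used: with the median length of each locus's models, 7.418 kb for XLOC_004337 and 2.807 kb for Grb10, the means were 0.327 ± 0.0676% and 0.163 ± 0.0085% (SD, n = 3 each).

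**Figure D3:**
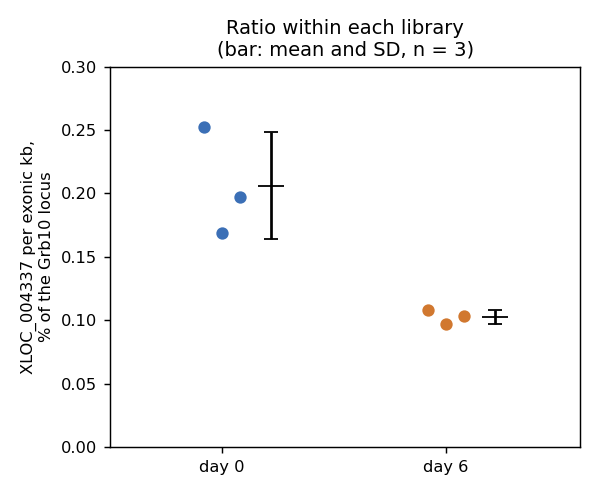
Level of XLOC_004337 per exonic kilobase as a percentage of that of Grb10 in the same library, 1 point per library, with the mean and SD of 3 libraries beside the points. All day 0 points are at 0.169% or above, and the highest of day 6 is at 0.108%.

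The 4 other counted loci of the region did not follow Grb10. Of all 6 loci, 2 rose (Grb10 and XLOC_004337), 2 fell (Cobl and 1700042O10Rik) and 2 did not pass the test, where 44% of the 17145 tested loci were called, 22.2% higher and 21.8% lower. With 6 loci these counts do not set the region apart from the table. The stages were apart for 4 of the 6 loci, against 57.3% of all tested loci. The median log2 difference was -0.23 over the 6 and 0.02 over all tested loci.

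Cobl, which encodes an actin-nucleating protein, is the next coding locus beyond the far end of XLOC_004337 and spans 12136522 to 12364967 on the minus strand. It fell from 28859, 46443 and 19488 normalized counts in day 0 replicates 1, 2 and 3 to 4687, 5070 and 6234 at day 6. The highest day 0 library was more than 2-fold above the lowest, but all day 0 libraries were above those of day 6. The log2 difference was -2.49 (SE 0.29, limma adjusted p = 0.000319). Per exonic kilobase Cobl had 3962 ± 1716 normalized counts in undifferentiated cells, near the 5058 ± 220.9 of Grb10, and 668.4 ± 101 in embryoid bodies (SD, n = 3 each).

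Ddc and Fignl1 lie beyond the 3′ end of Grb10 on the same strand. Ddc, at 11714103 to 11798147, encodes the decarboxylase that makes dopamine and serotonin. It had 1811, 2761 and 3277 normalized counts in day 0 replicates 1, 2 and 3, and 1475, 1840 and 1887 at day 6. The stages overlapped, and the log2 difference of -0.56 (SE 0.25) did not pass the test (limma adjusted p = 0.099). Without day 0 replicate 1 it did, at -0.80 (limma adjusted p = 0.00931), and DESeq2 on the recovered reads also called it, at -0.61 (adjusted p = 0.049). Fignl1, which encodes an ATPase of recombination repair, spans 11687278 to 11709478. It had 16136 to 20935 normalized counts at day 0 and 19249 to 20778 at day 6, a log2 difference of 0.10 (SE 0.14, limma adjusted p = 0.609).

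The noncoding 1700042O10Rik lies within the Ddc locus on the opposite strand, at 11768126 to 11785323. It had 58.45, 158.5 and 107.7 normalized counts in day 0 replicates 1, 2 and 3, and 28.39, 22.55 and 24.01 at day 6. All day 6 libraries were below all day 0 libraries, at 22 to 28 reads, and the log2 difference was -1.97 (SE 0.42, limma adjusted p = 0.00582). Ddc exons cover 15.51% of its exonic bases, and without known strand use, reads from these bases cannot be told apart.

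**Figure D4:**
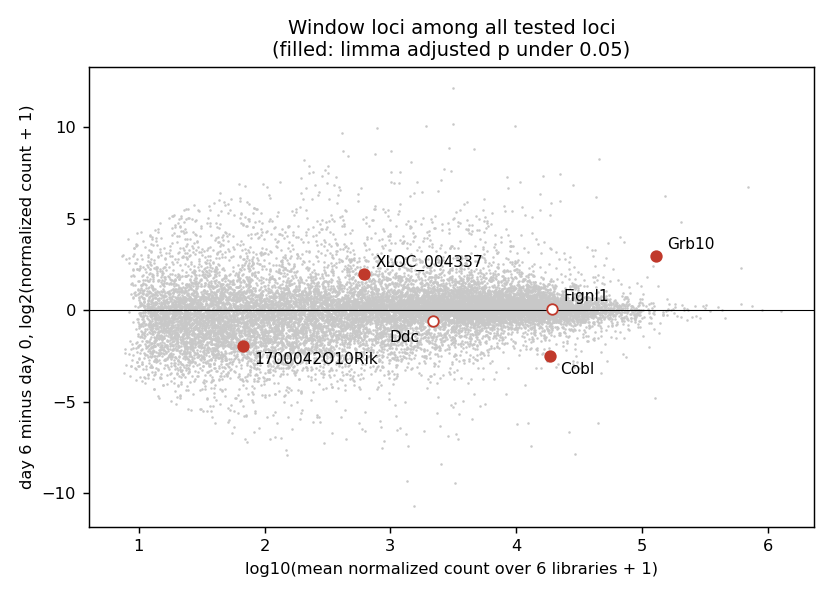
Day 6 minus day 0 on the log2(normalized count + 1) scale against the mean level over 6 libraries on a log10 scale, for 17145 tested loci (grey) and the 6 counted loci of the region (red; filled where the limma adjusted p was under 0.05). Grb10 stands at the upper right with a difference of 2.96, XLOC_004337 at 1.97, and Cobl and 1700042O10Rik lie below zero.

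With the different directions, the make-up of the region's RNA changed. The normalized counts of the 6 loci summed to 82742 ± 14568 before and 257482 ± 20863 after differentiation (SD, n = 3 each). Grb10 took 29.1 to 42.1% of them at day 0 and 87.9 to 89.9% at day 6. Cobl took 26.6 to 46.7% and then 1.74 to 2.67%. The share of XLOC_004337 was 0.206 to 0.397% at day 0 and 0.363 to 0.406% at day 6, so its share overlapped between the stages.

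The surroundings held few counted loci. The noncoding Gm12002, named by its intron chain, was counted but too low to enter the fit. Its means were 11.08 normalized counts at day 0 and 5.471 at day 6. Within 1000000 bases on either side, 5 further loci were tested, and all 5 were called, 4 higher and 1 lower, with limma adjusted p from 0.00214 to 0.0281. Of all tested loci 44% were called, 22.2% higher and 21.8% lower. By intron chains 4 of them are Vwc2, a secreted BMP antagonist (log2 difference 3.21), Spata48 (1.27), Ikzf1, a zinc finger factor of lymphoid cells (2.14), and Zpbp, a protein of the sperm acrosome (1.34), and these rose. The intergenic XLOC_004339, at 12480725 to 12772286 on the plus strand, fell (-2.86, SE 0.54). It had only 2.028 to 6.263 normalized counts per library at day 6. Vwc2 and Ikzf1 were low and uneven at day 0, with 6.107 to 41.43 and 21.75 to 143.9 normalized counts. The SE of the log2 difference was 0.65 for each of these 2. XLOC_004339 met the filter of 10 normalized counts in 3 libraries only through day 0, where it was high. The day 6 libraries of Vwc2, where it was high, met it alone. Entry to the fit thus partly favoured the direction called for XLOC_004339 and Vwc2. With no filter all 5 neighbours were still called. The largest mean among the 5 was 757.3 normalized counts, for Zpbp at day 6, so Grb10 was by far the most abundant riser of the neighbourhood. Without day 6 replicate 2 only 3 of the 5 were called. These neighbours, like the ratio with model lengths, were added after the data had been seen, and no test of them as a list was made.

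The loci whose profile over the 6 libraries was most like each member were sought by the smallest Euclidean distance of log2 values centred per locus, as a description. For XLOC_004337 this was the coding locus XLOC_036488, on chromosome 9 at 44284605 to 44319985, at a distance of 0.152 and with a log2 difference of 1.90; other loci share 17.1% of its exonic bases. For Grb10 it was the coding locus XLOC_000375, on chromosome 1 at 93247562 to 93258981, at a distance of 0.211 and with a log2 difference of 3.07. With libraries of only 2 stages, such likeness reflects mainly the size of the rise.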

How the data were processed

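In the deposited table each value is a signal for a locus in a library, a read count that the authors divided by 1 size factor per library, read from the values, since 100% of them are whole multiples of 1 step per library within 0.01 reads. Size factors ran from 0.958 to 1.15. Exon positions come from the assembly that the authors deposited. Per the submitters' processing notes, the build was mm9 and the tools included HTSeq 0.5.4p3, TopHat2 2.0.8, DESeq (version unstated) and Cufflinks 2.1.1. The treatment of strand, multi-mapping reads and shared exons is not stated in them.

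The stages were compared on log2(normalized count + 1) by limma 3.58.1 (R 4.3.3, trend and robust estimation). Loci entered the fit when 3 or more of the 6 libraries had 10 normalized counts or more. Tests were two-sided, with Benjamini-Hochberg adjustment over the 17145 tested loci and a threshold of 0.05. The added 1 shrinks the differences of low loci. Alternatives used edgeR 4.0.16 and DESeq2 1.42.0 on recovered reads. The limma steps were also run on simulated counts with few changed loci and the same spread at both stages. The data differ in both respects, so that run does not give the error rate here. The ratio within libraries was tested with scipy 1.17.1. Counted reads carry no molecular identifiers and are not independent molecules.

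A locus was called coding where a model matches an annotated transcript with a protein identifier. It was called intergenic where the assembly classed all its models as unknown and intergenic. Every counted locus of the region is named, and the most like locus for each of the members. The neighbouring counted loci, 5 of them tested, are named because they are so few. Gene symbols were taken only for loci of the region and its surroundings, by identical intron length chains of at least 2 introns. Lists of insulin and IGF signalling genes, imprinted genes and cell type markers were not tested: they were set to be used only where the files or reference tables pair loci with symbols, and intron chains were not matched beyond the region and its surroundings. The members and lists were chosen with earlier results of these data known. Columns of values left unused numbered 0.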

Additional observations from a re-analysis of the deposited data

How the results depend on the processing

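In all 17 alternatives (other variance settings, weights per stage, pseudocounts, filters, quantile and TMM scaling, edgeR, DESeq2, a replicate block and each library left out) Grb10 and XLOC_004337 kept direction and call, with log2 differences of 2.9 to 3.04 and 1.83 to 2.1 and adjusted p of at most 0.000127 and 0.00429. Cobl (-2.79 to -2.16) and 1700042O10Rik (-2.35 to -1.64) did so too. Fignl1, not called in any, turned to -0.01 without day 0 replicate 1 and reached 0.18 without day 0 replicate 2. Ddc was called in 2 alternatives. With the replicate number as a block Grb10 was at 2.96 (limma adjusted p = 2.41e-07) and XLOC_004337 at 1.97 (limma adjusted p = 0.000199), and 7852 loci were called against 7543. Paired by number, the log2 ratio changed by -0.99 (exact sign-flip p = 0.25, the smallest possible with 3 pairs). Same-numbered libraries deviated together with r of 0.176, 0.134 and 0.0741, each the highest for its number, so the numbers are a hint at most. The ratio change ran from -1.13 to -0.84 with single libraries left out. Counts of called loci ran from 5264 to 9105. The median locus SD was 0.4 at day 0 and 0.142 at day 6; with weights per stage both members were still called. The distance between the starts was 341 bases at the median model and 38418 at the farthest. Depth limits 1700042O10Rik most, at 22 to 28 reads per day 6 library.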
